A study of Mus musculus with 18 samples.

Results

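The genes that carry and control the Wnt signal were followed through mouse oocytes of 3 stages grown *in vivo* or *in vitro*. They were chosen by gene symbol alone, as the Wnt ligands, the proteins that secrete them, their receptors, the R-spondins with their receptors and ligases, the secreted antagonists, the cytoplasmic transducers and the TCF/LEF transcription factors. The rule took 56 of the 28252 genes in the deposited table of TPM, a level scaled for gene length and library size. The rule uses symbols and no measured value, but it was chosen with earlier results of these data known. It also took 2 antisense genes, *Fzd10os* and *Rspo4os*, which had no count in any library, so that 54 genes with a role in the pathway remained: 13 ligands, 2 secretion genes, 11 receptors and co-receptors, 8 genes of the R-spondin axis, 8 antagonists, 8 transducers and 4 TCF/LEF factors.

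The 18 libraries came from F1 mice of the cross C57Bl/6j x CBA/J, in 6 groups with 3 libraries apiece. Oocytes of primordial and of primary follicles were cut from ovarian sections by laser capture microdissection (LCM). The ovaries had been fixed in paraformaldehyde and embedded in paraffin, and the sections were stained. The *in vivo* groups came from ovaries of 14-day-old mice that were not cultured. The *in vitro* groups came from ovaries of 7-day-old mice cultured for 7 days in α-MEM. The medium held fetal bovine serum, insulin, transferrin, selenium and recombinant follicle stimulating hormone (FSH). Metaphase II (MII) oocytes, the mature and ovulated form, came in the *in vivo* group from adult mice superovulated with human menopausal gonadotrophin and human chorionic gonadotropin (hCG). In the *in vitro* group they came from secondary follicles of cultured ovaries. These follicles grew for 12 more days in alginate, again with serum, insulin, transferrin, selenium and FSH, and the oocytes were released with hCG. The captured oocytes of a stage were pooled at RNA extraction and the labels do not say that the libraries of a group came from separate animals, so p-values measure the spread between these libraries, which may be technical. LCM and MII libraries were extracted and built with different kits, so stage and library preparation cannot be told apart between them and their levels are set side by side with no test.

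Wnt ligands are lipid-modified by the acyltransferase PORCN, carried to the cell surface by WLS and bound there by Frizzled receptors with the co-receptors LRP5 and LRP6. Without a ligand, AXIN and APC hold β-catenin (the product of *Ctnnb1*) in a destruction complex, and with a ligand the Dishevelled proteins disable that complex and β-catenin joins the TCF/LEF factors on target genes. The ligases RNF43 and ZNRF3 take Frizzled receptors off the membrane, and R-spondins, through LGR4, LGR5 and LGR6, take these ligases away and so strengthen the signal. In the ovary the pathway is best known from the somatic cells, where WNT4 and RSPO1 take part in female gonad development, and RSPO2 is known as a factor made by the oocyte.

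Each of the 12 LCM libraries held 15149564 to 29205503 counts, and each of the 6 MII libraries 7334817 to 9978830. CPM here are counts scaled to the effective size of a library. A floor of 3 counts in a library is used below, equal to 0.0930 to 0.216 CPM in LCM and 0.284 to 0.360 CPM in MII libraries and covers counting error only. Markers of the oocyte summed to 329 to 2063 TPM in the LCM libraries and 10530 to 21150 TPM in the MII libraries. Markers of theca and stroma summed to 29980 TPM in the second library of primary oocytes *in vivo* and to 453 to 3525 TPM in the other LCM libraries, with at least 4 of the 11 markers above the floor in each. Markers of the surface epithelium summed to 4496 TPM, with 7 of 7 above the floor, in the second library of primary oocytes *in vitro* and to at most 787 TPM in the other LCM libraries. The first library of primordial oocytes *in vivo*, at 787 TPM, also had 7 of 7 above the floor, and the second of primary oocytes *in vivo* had 6. The 8 markers of endothelium, blood and immune cells summed to 7505, 2369 and 1227 TPM in libraries 1, 2 and 3 of primary oocytes *in vivo*, with 2 to 4 of them above the floor, and to at most 201 TPM in every other LCM library. Most of that was haemoglobin RNA. *Pecam1*, *Ptprc* and *Adgre1* were at 0 in that group and also in primordial oocytes *in vivo*. *Cdh5*, *Kdr* and *Cd68* each had counts in at least 1 library of primary oocytes *in vivo*. Granulosa cell markers summed to 175 to 2559 TPM in the LCM libraries and to 204 to 477 TPM in the MII libraries. Of these 13 markers, *Foxl2* and *Amhr2* were at 0 in both MII groups. *Amh*, *Inha*, *Inhba* and *Hsd17b1* were at 0 in MII oocytes *in vivo* but not *in vitro*, and *Wt1* was at 0 *in vitro* only. The LCM libraries thus held RNA that is known from cells around the oocyte, and fewer such cells and less RNA per cell cannot be told apart.

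Of the 56 genes, 7 were above the floor in all 18 libraries. These were *Ctnnb1*, *Apc*, *Axin2*, *Dvl3*, *Lrp5*, *Lrp6* and *Tcf7*, that is, the core of the receptor, the destruction complex and 1 nuclear factor. In the MII libraries 20 genes were above the floor in all 6, and in the LCM libraries the same 7 in all 12. Another 4 genes, *Wnt3*, *Sfrp5* and the antisense pair, were above it in no library. Of the 50 genes with any LCM count, 13 had at least 90% of all their LCM counts in 1 library, and 8 were above the floor in exactly 1 LCM library. The level of a gene was far more even among MII libraries, where the highest TPM was 1.48 to 19.5 times the lowest over the 20 genes (median 2.75), than among LCM libraries, where it was 14.3 to 8960 times the lowest over the 7 genes detected in all 12. In the MII libraries the same 7 genes had ratios from 1.69 (*Tcf7*) to 3.29 (*Axin2*). The LCM ratios span more libraries and more groups.

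**Figure D1:**
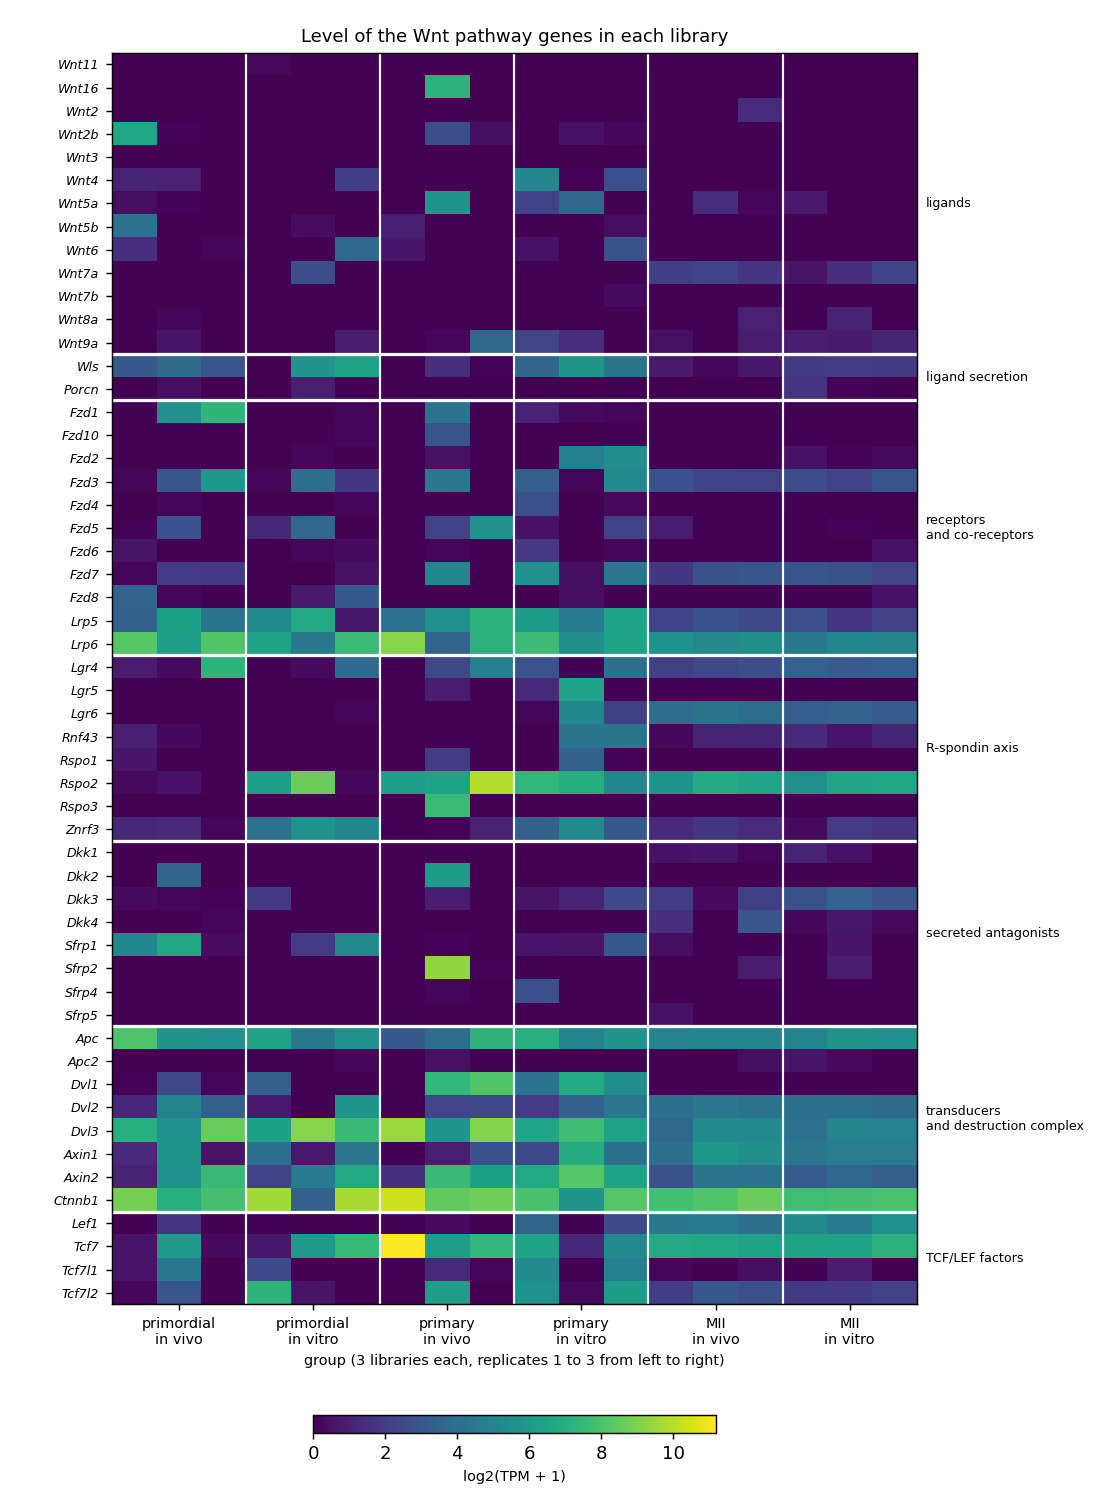
Level of the 54 pathway genes (rows, grouped by role) in the 18 libraries (columns, grouped by stage and growth condition), coloured by log2(TPM + 1). *Ctnnb1*, *Dvl3*, *Apc* and *Lrp6* are present in every column, the MII columns resemble each other, and several ligands and antagonists stand out in 1 LCM library alone, such as *Sfrp2*, *Rspo3* and *Wnt16* in the second library of primary oocytes *in vivo*.

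The number of pathway genes above the floor differed widely between libraries of a group. Primordial oocytes had 27, 30 and 17 of 56 genes above the floor *in vivo* and 18, 21 and 24 *in vitro*. Primary oocytes had 10, 34 and 17 *in vivo* and 32, 29 and 33 *in vitro*. The *in vitro* primary libraries were thus close to each other, while the *in vivo* ones held both the lowest and the highest number of all 12, so neither pair of groups was separated. The library with 10 genes also had the fewest genes of any kind above the floor, 4842, against 5703 to 11710 in the other LCM libraries. The library with 34 genes was the one with 29980 TPM of stromal markers. The part of these values in the gene numbers was not tested. MII oocytes had 26, 22 and 29 genes above the floor *in vivo* and 27, 28 and 24 *in vitro*.

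**Figure D2:**
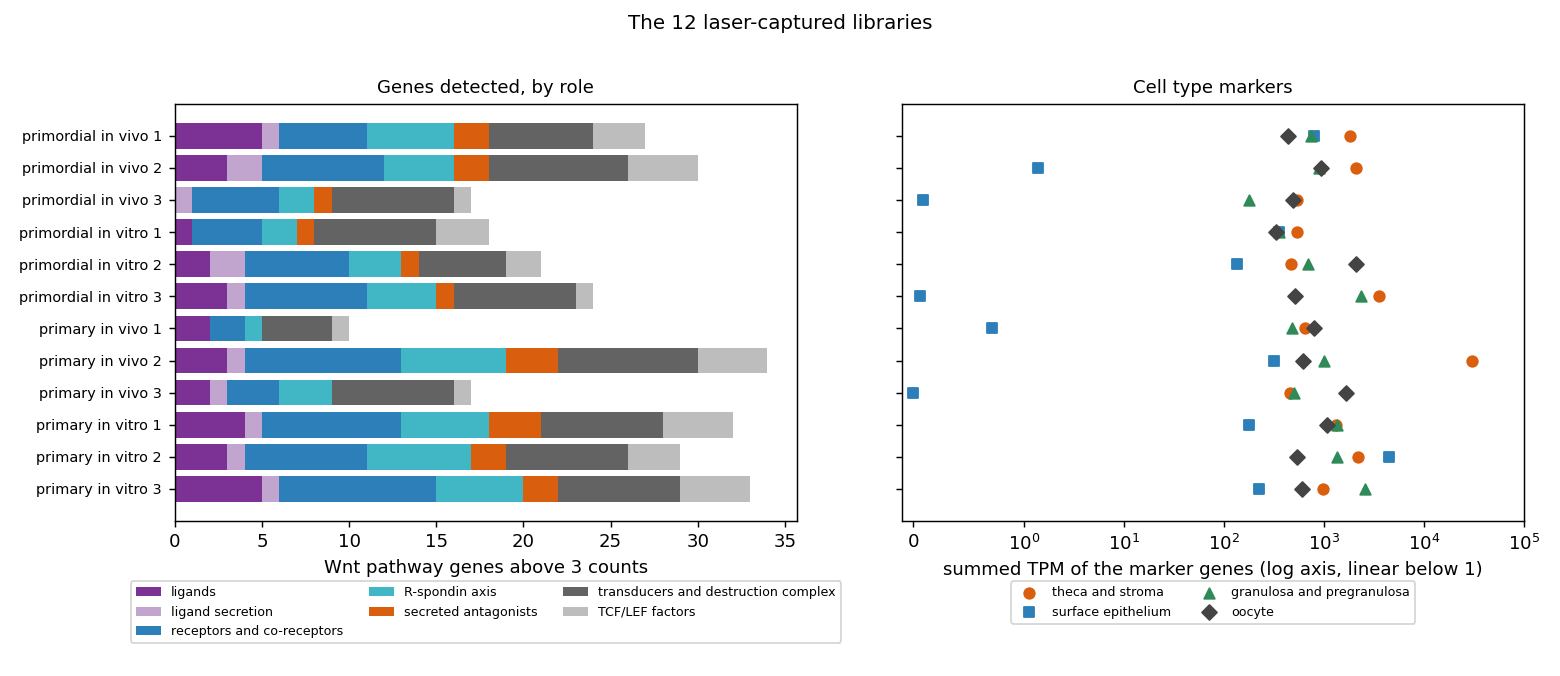
Left, number of pathway genes above 3 counts in each of the 12 LCM libraries, stacked by role; right, summed TPM of 4 marker lists in the same libraries on a log axis that is linear below 1. Primary *in vivo* library 1 has 10 genes and library 2 has 34, and library 2 also holds 29980 TPM of theca and stroma markers, whereas primary *in vitro* library 2 holds 4496 TPM of surface epithelium markers.

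Counts were tested with edgeR's quasi-likelihood test, and a call needed an adjusted p (Benjamini-Hochberg, over all genes tested) under 0.05 together with a fold change of at least 2. A positive log2 fold change is higher *in vitro* or, between stages, higher in primary oocytes. With 10 counts or more in total, 47 of the 56 genes entered the model of the 12 LCM libraries and 34 the model of the 6 MII libraries. None of them was called in any of the 6 comparisons, and few genes of any kind were. In primordial oocytes, culture gave calls for 0.0326% of 15317 genes, and in primary oocytes for 0%. In MII oocytes calls covered 0.350% of 17144 genes. Between primary and primordial oocytes they covered 0.0522% *in vivo* and 0% *in vitro*, and the difference of the culture effect between the stages (the interaction) was called for 0.104%. DESeq2, run with its defaults on the same libraries and genes, called more. For primordial culture it called 4 of 47 pathway genes and 812 of all 15317, and for primary culture 2 of 47 and 244 of 15317. In MII oocytes it called 0 of 34 and 337 of 17144. Between stages it called 2 of 47 and 561 of 15317 *in vivo*, and 2 of 47 and 454 of 15317 *in vitro*. For the interaction it called 3 of 47 and 558 of 15317. DESeq2 gave some genes no p, such as *Tcf7* between stages *in vivo*. The difference between these shares was not tested.

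At an unadjusted p under 0.05, the pathway genes stood near the background of all genes in primordial culture, with 5 of 47 (10.6%) against 11.7%, and in MII oocytes, with 4 of 34 (11.8%) against 10.2%. In the other comparisons their share was larger than that of all genes. It was 9 of 47 (19.1%) against 9.66% for primary culture, 9 of 47 (19.1%) against 11.2% between stages *in vivo*, 8 of 47 (17.0%) against 10.9% between stages *in vitro* and 7 of 47 (14.9%) against 11.5% for the interaction. The difference between these shares was not tested. Many of these low p-values belonged to genes with counts in 1 library of a group and none in the other group, as the values by role show. In primary culture they included *Sfrp2*, *Wnt16*, *Rspo3*, *Dkk2* and *Fzd10*. Each of these had 86.9% to 100% of its LCM counts in the second library of primary oocytes *in vivo*. The stage comparison *in vivo* uses that same library and counts *Sfrp2*, *Wnt16*, *Rspo3* and *Fzd10* again, so the 2 larger shares are not separate results.

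The R-spondin axis held the smallest p-value of the pathway genes in primordial culture, between the stages *in vivo* and for the interaction, each time for *Rspo2*. *Rspo2* (ENSMUSG00000051920, chromosome 15, 43020794 to 43170826, minus strand) is the R-spondin that oocytes are known to make. In primordial oocytes it had 8, 17 and 2 counts in the 3 libraries *in vivo* and 1832, 17714 and 6 counts *in vitro*. In primary oocytes it had 2579, 3182 and 24467 counts *in vivo* and 5912, 4808 and 1466 counts *in vitro*. The 3 primordial libraries *in vivo* and 1 of the 3 *in vitro* were therefore nearly empty of it, while every primary library had at least 1466 counts. *In vivo*, the mean level was 0.359 ± 0.263 CPM (SD, n = 3) in primordial and 536 ± 687 CPM in primary oocytes, a 1490-fold ratio of means, and the groups did not overlap. The log2 fold change was 10.52 ± 2.90 (SE), with an unadjusted edgeR p of 0.000292 and an adjusted p of 0.263. Without the first primary library *in vivo*, which has the fewest genes detected, the adjusted p was 0.0263, with a log2 fold change of 10.96, and *Rspo2* was called. With each of the other libraries left out it was not, and over all such fits the log2 fold change ran from 8.57 to 11.18. The blood and endothelium markers also separated these groups, and their part in the value was not tested. DESeq2 gave it 10.8 with an adjusted p of 2.65e-07.

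Culture of primordial oocytes gave *Rspo2* a mean of 262 ± 346 CPM, against the 0.359 CPM *in vivo*, with overlapping groups, since library 3 of the cultured group had 6 counts. The log2 fold change was 9.49 ± 2.79 (edgeR adjusted p = 0.359, DESeq2 adjusted p = 7.39e-06), and 7.50 to 10.15 with single libraries left out. In primary oocytes culture gave 148 ± 89.5 CPM, and the *in vivo* and *in vitro* groups overlapped. The interaction for *Rspo2* was -11.34 ± 3.35 on the log2 scale, with an edgeR adjusted p of 0.156. It was -11.78 with an adjusted p of 0.0455 without the first primary library *in vivo*, and ran from -12.00 to -9.35 over all fits without 1 library. In MII oocytes *Rspo2* was even, at 117, 209 and 162 CPM *in vivo* and 120, 154 and 180 CPM *in vitro*, a log2 fold change of -0.10 ± 0.336 with an adjusted p of 0.955. By TPM it came after *Ctnnb1* and *Tcf7* among the 56 genes in MII oocytes, with a mean of 82.3 TPM.

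*Znrf3* encodes one of the membrane ligases that R-spondins counter, and it was chosen for description after its values were seen. It had 75, 86 and 8 counts in primordial oocytes *in vivo* and 650, 3476 and 1658 *in vitro*. In primary oocytes it had 0, 4 and 43 counts *in vivo* and 526, 2195 and 465 *in vitro*. At each stage every cultured library was above every *in vivo* library. Groups did not overlap, in either direction, for 6.59% of all genes tested in primordial and 9.99% in primary culture. The share of all genes with this at both stages was not counted. The labels do not say that the stages came from separate animals. The ratio of mean CPM was 37.4 in primordial and 50.6 in primary oocytes. edgeR gave log2 fold changes of 5.22 ± 3.49 (adjusted p = 0.509) and 5.65 ± 3.56 (adjusted p = 0.599), so the difference did not pass the test at either stage, and DESeq2 called it in primordial oocytes. In MII oocytes it had 5.66 ± 1.30 CPM *in vivo* and 5.12 ± 3.79 CPM *in vitro* (SD, n = 3), and the groups overlapped.

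*Rnf43*, the other ligase and a known target of the pathway, had 960 and 1005 counts in libraries 2 and 3 of cultured primary oocytes and 0 in library 1. It was at 0 in all 3 libraries of primary oocytes *in vivo* and of cultured primordial oocytes, and had 44, 9 and 0 counts in primordial oocytes *in vivo*. The mean of the cultured primary group was at least 158-fold higher than the floor over the *in vivo* group, with an edgeR adjusted p of 0.440. Its interaction was 19.24 ± 6.24 on the log2 scale with an adjusted p of 0.183, a fitted value that depends on groups at 0. DESeq2 called *Rnf43* for the stage comparison *in vitro* and for the interaction.

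The 3 receptors of R-spondins were spread over different libraries. *Lgr6* was at 0 in 8 of the 12 LCM libraries and had 7, 1746 and 187 counts in cultured primary oocytes, against 0 in all 3 libraries *in vivo*. The cultured group was at least 177-fold higher by its mean, with an edgeR adjusted p of 0.440, and 89.7% of its LCM counts were in the library rich in surface epithelium markers. *Lgr5*, known as a stem cell marker also found in the ovarian surface epithelium, had 6846 counts in that same library, 114 in library 1 of that group and 0 in library 3. Primordial oocytes *in vivo*, whose first library had 787 TPM of these markers, had no *Lgr6* count and *Lgr5* above the floor in no library. *Lgr5* had no count in cultured primordial oocytes, which gave at least a 634-fold difference of means between the stages *in vitro*, with an edgeR adjusted p of 0.384. *Lgr4* was found in 9 of 12 LCM libraries, and 71.5% of its LCM counts came from 1 primordial library *in vivo*. Of the other R-spondins, *Rspo3* had 4399 counts in the stroma-rich primary library *in vivo* and none elsewhere, and *Rspo1* had at most 146 counts in any library, again in the one rich in surface epithelium markers.

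**Figure D3:**
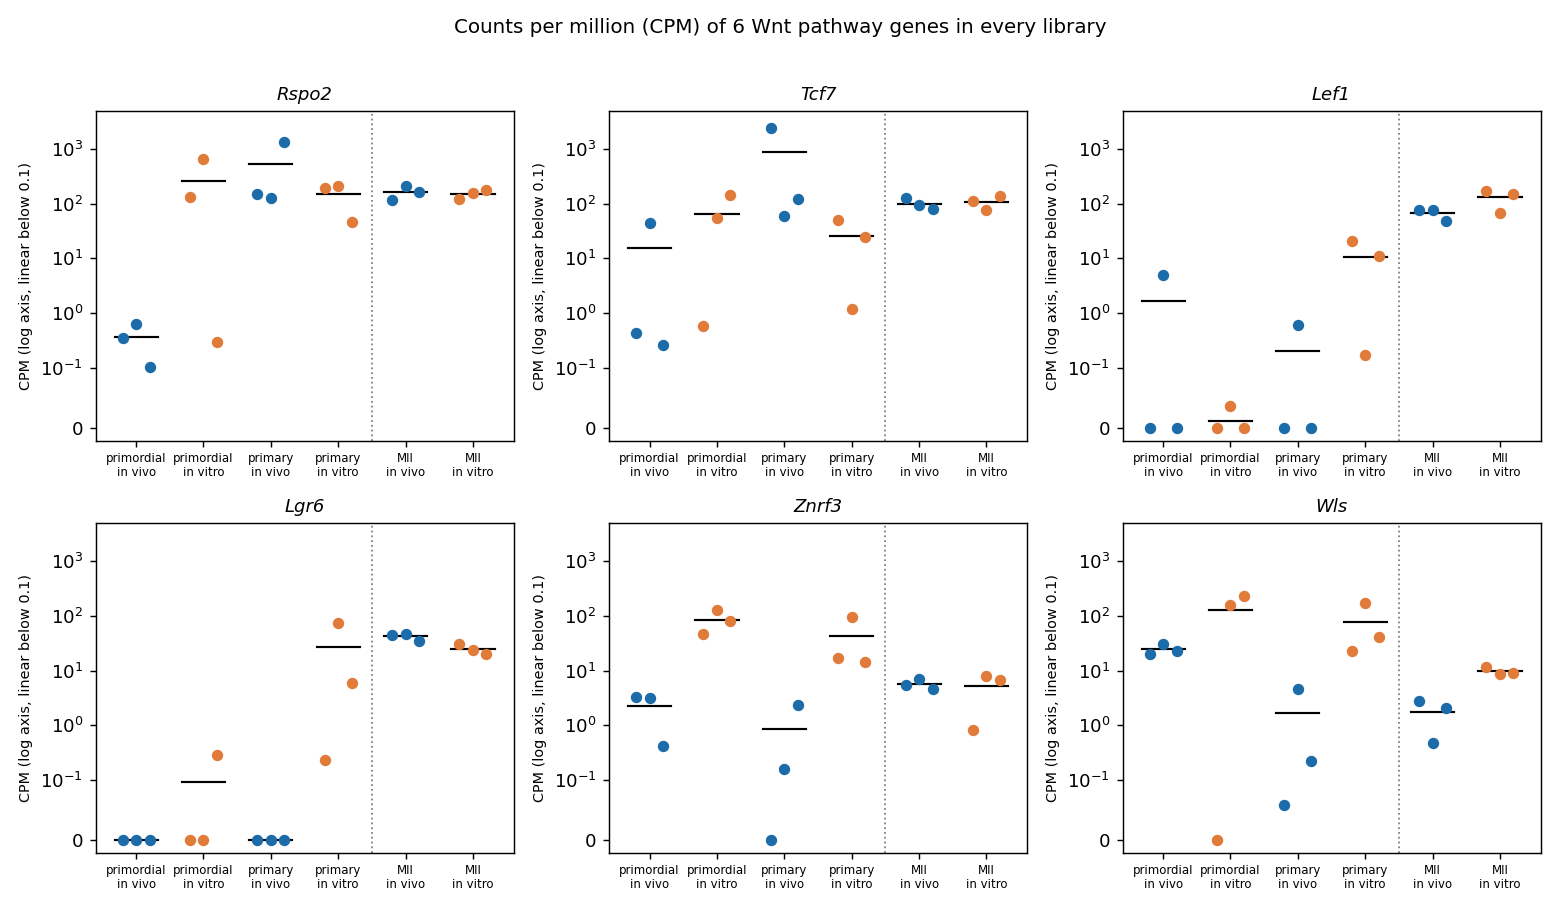
CPM of 6 pathway genes in each library (points; blue *in vivo*, orange *in vitro*) with the mean of 3 libraries (black line), on a log axis that is linear below 0.1; the dotted line parts LCM from MII libraries, which were prepared differently. *Rspo2* is below 1 CPM in the 3 primordial libraries *in vivo* and 1 cultured one, *Znrf3* is higher in every cultured LCM library than in the *in vivo* libraries of its stage, and *Lef1* and *Lgr6* are even in MII and scattered in LCM libraries.

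The ligands were sparsely detected. None of the 13 was above the floor in more than 5 of the 12 LCM libraries, and 3 were above it in none. *Wnt4*, a ligand known from pregranulosa and granulosa cells, had 1005, 3 and 188 counts in cultured primary oocytes and 0 in all 3 libraries *in vivo*, with library 2 at the floor and at least an 84.3-fold difference of means (edgeR adjusted p = 0.440). The granulosa markers, 13 genes, summed to 1331 to 2559 TPM in those cultured libraries and to 477 to 999 TPM *in vivo*, and their part in the value was not tested. *Wnt2b* had 2967 of its LCM counts in 1 primordial library *in vivo*, with 2 and 0 in the others and 0 in all 3 cultured ones (edgeR adjusted p = 0.359). *Wnt16* had 4632 counts, and *Wnt5a* 3173, in the stroma-rich primary library *in vivo*. *Wnt16* was at 0 in the other 11 LCM libraries, and *Wnt5a* had 202, 704 and 0 counts in cultured primary oocytes and 0 in cultured primordial oocytes, at least a 78.3-fold difference between these stages (edgeR adjusted p = 0.384). In primordial oocytes *in vivo* *Wnt5a* was near the floor, with a mean of 0.319 CPM and 2 of 3 libraries above it. That mean was at least 2.03-fold above the floor of the cultured group. DESeq2 called this difference with a fitted log2 fold change of -19.87, against -5.91 ± 3.60 with edgeR (adjusted p = 0.467).

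In MII oocytes 5 ligands were above the floor in at least 1 library and 1, *Wnt7a*, in all 6. *Wnt7a* had 36, 36 and 26 counts *in vivo* and 7, 22 and 41 counts *in vitro*, so the groups overlapped (log2 fold change -0.59 ± 0.914, edgeR adjusted p = 0.882). Among the LCM libraries it was found in 1, with 149 counts in the second library of cultured primordial oocytes. *Wnt9a* was the next most frequent ligand in MII oocytes, at 0 to 14 counts and above the floor in 5 of 6 libraries.

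Of the genes for ligand secretion, *Wls*, the carrier of Wnt proteins, was found in 10 of 12 LCM libraries and *Porcn* in 2. *Wls* had 472, 835 and 439 counts in primordial oocytes *in vivo* and 1, 116 and 4 in primary oocytes *in vivo*, and these groups did not overlap (log2 fold change -3.90 ± 3.03, edgeR adjusted p = 0.631). It had 695, 3913 and 1333 counts in cultured primary oocytes, all above the 3 libraries *in vivo* (5.55 ± 3.28, adjusted p = 0.572). In cultured primordial oocytes it ranged from 0 to 4851 counts, wider than the difference from the *in vivo* group.

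Among the receptors, the co-receptors *Lrp5* and *Lrp6* were above the floor in all 18 libraries, while the Frizzled genes varied by library. *Lrp6* came after *Ctnnb1*, *Dvl3* and *Tcf7* among the 56 genes in LCM libraries, with a mean of 169 TPM and a range of 10.9 to 565 TPM. *Fzd1* had 0, 1462 and 4897 counts in primordial oocytes *in vivo* and 0, 1 and 3 *in vitro*, at least a 656-fold lower mean in culture with an edgeR adjusted p of 0.359, and DESeq2 called it. The first *in vivo* library had none, so the groups overlapped. *Fzd2* had 0, 753 and 1332 counts in cultured primary oocytes and 0, 11 and 0 *in vivo*. In primordial oocytes, where the study names it as higher in culture, *Fzd2* had no count *in vivo* and was above the floor in no cultured library. *Fzd10* had 154 counts in the stroma-rich primary library *in vivo*, 98.1% of its LCM counts, and its interaction of -11.82 ± 4.46 (edgeR adjusted p = 0.257) rests on that library. *Fzd3* was the Frizzled gene found in most LCM libraries, 10 of 12, and with *Fzd7* it was above the floor in all 6 MII libraries. In MII oocytes *Fzd3* had 3.44 to 6.56 TPM and *Fzd7* 2.55 to 7.05 TPM.

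The secreted antagonists bind ligands (the SFRP proteins) or the LRP co-receptors (DKK1, DKK2 and DKK4). *Sfrp2* had 10023 counts in the stroma-rich primary library *in vivo* and 0 to 6 in each other library of the 18, and *Dkk2* had 1945 in it, 292 in 1 primordial library *in vivo* and none elsewhere. Against cultured primary oocytes, *Sfrp2* gave at least a 1260-fold lower mean in culture (edgeR adjusted p = 0.440), a value that rests on that 1 library. *Sfrp1* had 1105, 3091 and 9 counts in primordial oocytes *in vivo*, and 0, 3 and 0 in primary oocytes *in vivo*. These groups did not overlap, and the mean was at least 354-fold lower in primary oocytes (edgeR adjusted p = 0.385), with DESeq2 calling the gene. Culture of primary oocytes gave *Sfrp1* 16, 16 and 249 counts, again without overlap with the *in vivo* group (5.98 ± 3.78 on the log2 scale, adjusted p = 0.60). The library with 29980 TPM of stromal markers had 3 counts of *Sfrp1*. *Sfrp4* had 164 counts in library 1 of cultured primary oocytes, 98.2% of its LCM counts, which gave at least an 11.3-fold difference from cultured primordial oocytes (edgeR adjusted p = 0.384).

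The transducers held the most abundant gene. *Ctnnb1*, which encodes β-catenin, had the highest mean TPM of the 56 genes in both kinds of library, 427 TPM in LCM (10.0 to 1296 TPM) and 267 TPM in MII (213 to 395 TPM). In primary oocytes it had 46782, 13206 and 11290 counts *in vivo* and 9008, 2141 and 12205 *in vitro*. After scaling to CPM every *in vivo* library was above every cultured one, at 2731, 530 and 614 against 293, 92.4 and 379 CPM (log2 fold change -2.34 ± 1.54, edgeR adjusted p = 0.623). *Dvl3* was the most even transducer among LCM libraries, from 50.9 to 727 TPM. *Axin1*, a scaffold of the destruction complex, had 217, 703 and 579 counts in MII oocytes *in vivo* and 323, 346 and 316 *in vitro*, with overlapping groups (-0.69 ± 0.428, edgeR adjusted p = 0.562), and ranged from 0 to 121 TPM in LCM libraries. *Axin2*, a feedback target of the pathway, ranged from 1.11 to 303 TPM in LCM and from 5.93 to 19.5 TPM in MII libraries.

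*Dvl1* had few counts in most primordial libraries and none in mature oocytes. It had 3, 155 and 5 counts in primordial and 0, 6133 and 7173 counts in primary oocytes *in vivo*, a log2 fold change of 6.69 ± 3.30 with an edgeR adjusted p of 0.429 and overlapping groups. *In vitro* it had 237, 0 and 2 counts in primordial and 623, 4271 and 1856 in primary oocytes, which did not overlap (3.94 ± 2.89, adjusted p = 0.634). It had 0 counts in all 6 MII libraries, where *Dvl2* had 283 to 441 and *Dvl3* 224 to 638 counts. An exon of *Dvl1* overlaps *Tas1r3* on the other strand. The counting is not stated to use strand, so reads of the pair within that overlap cannot be told apart, and their number is not known. The same holds for *Ctnnb1* with *Ulk4*, for *Dvl2* with *Acadvl*, and for *Axin2*, *Apc2*, *Lef1*, *Tcf7l1*, *Sfrp2*, *Rspo3*, *Wnt5a*, *Wnt7b*, *Wnt11*, *Fzd5* and *Fzd6*, each with a gene on the other strand. In all, 14 of the 56 genes were above the floor in an LCM library and at 0 in all 6 MII libraries. Among them *Fzd10*, *Rspo3*, *Sfrp4*, *Wnt7b*, *Wnt11* and *Wnt16* were above it in 1 LCM library only. The LCM libraries were also more in number and deeper, and the share of all genes with this pattern was not counted.

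Among the TCF/LEF factors, *Tcf7* was above the floor in all 18 libraries and, at a mean of 104 TPM, second to *Ctnnb1* in MII oocytes. In primordial oocytes *Tcf7* had 10, 1214 and 5 counts *in vivo* and 8, 1460 and 2982 *in vitro*. In primary oocytes it had 42242, 1473 and 2258 counts *in vivo*, and 1533, 27 and 794 *in vitro*. In CPM the primary libraries *in vivo* lay above the primordial ones *in vivo* and above the cultured primary ones, both without overlap. The summed markers of endothelium, blood and immune cells separated the same groups in the same direction and were also highest in library 1 of primary oocytes *in vivo*, at 7505 TPM, and their part in the *Tcf7* values was not tested. Between the stages *in vivo* the log2 fold change was 5.86 ± 2.36 (edgeR adjusted p = 0.380). It was 2.58 without library 1 of the primary group and 11.30 without library 2 of the primordial group. For culture of primary oocytes it was -5.13 ± 2.28 (adjusted p = 0.444), and for the interaction -7.25 ± 3.0 (adjusted p = 0.312). The 42242 counts stood in the library with the fewest genes detected.

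*Lef1* had 0, 134 and 0 counts in primordial oocytes *in vivo*, 0, 1 and 0 in cultured ones, 0, 15 and 0 in primary oocytes *in vivo* and 644, 4 and 360 in cultured ones. All cultured primary libraries were above all cultured primordial libraries, by at least 68.4-fold in the mean (edgeR adjusted p = 0.428). In MII oocytes *Lef1* had 479 to 1495 counts, and its 16.1 to 47.9 TPM there lay above its highest LCM level of 10.6 TPM. *Tcf7l2* ranged from 0 to 152 TPM in LCM and from 2.73 to 7.44 TPM in MII libraries, and *Tcf7l1* was above the floor in 2 of 6 MII libraries.

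Promoters of the pathway genes were searched for the core letters of the motif that TCF/LEF factors bind. Of the 56 genes, 34 had a promoter in the RefSeq table on GRCm38.p6, taken from 250 bases before to 50 bases after a transcript start, with 47 such windows. CTTTGA, searched on both strands, was in 5 of the 47 (10.6%) and in 16% of all 32851 promoters of that length. The 5 windows belonged to *Lef1*, *Fzd1*, *Dkk1*, *Wnt5b* and *Wnt11*. *Lef1* and *Axin2* are shown because both are textbook targets of the pathway: 1 of the 4 *Lef1* windows, for a start inside the gene, held the motif on the other strand 180 and 120 bases before the start (capitals), and the *Axin2* window held none. No match in a window says only that these letters are not in it.
*Lef1*, chr3:131156044-131156343, plus strand: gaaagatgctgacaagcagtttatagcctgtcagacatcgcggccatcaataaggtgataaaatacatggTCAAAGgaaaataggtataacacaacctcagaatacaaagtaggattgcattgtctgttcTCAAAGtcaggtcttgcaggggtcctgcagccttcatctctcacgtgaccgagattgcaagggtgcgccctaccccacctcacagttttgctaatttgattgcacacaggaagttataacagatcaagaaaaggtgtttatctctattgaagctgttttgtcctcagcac
*Axin2*, chr11:108920099-108920398, plus strand: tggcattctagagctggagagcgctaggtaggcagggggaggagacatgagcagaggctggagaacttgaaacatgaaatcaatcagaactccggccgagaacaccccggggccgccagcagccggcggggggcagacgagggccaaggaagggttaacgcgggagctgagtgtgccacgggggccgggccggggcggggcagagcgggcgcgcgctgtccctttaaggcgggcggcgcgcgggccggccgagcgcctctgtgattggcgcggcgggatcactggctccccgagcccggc

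The groups of 3 libraries did not overlap in CPM for a few pathway genes in each comparison. In primordial culture this was 1 of 47 genes (2.13%) against 6.59% of all genes tested. In primary culture it was 8 of 47 (17.0%) against 9.99%, with *Fzd4*, *Lgr6*, *Sfrp1*, *Wls*, *Wnt4* and *Znrf3* higher and *Ctnnb1* and *Tcf7* lower *in vitro*. Between stages it was 4 of 47 (8.51%) against 6.39% *in vivo*, with *Rspo2* and *Tcf7* higher and *Sfrp1* and *Wls* lower in primary oocytes, and 3 of 47 (6.38%) against 11.2% *in vitro*, with *Dvl1*, *Lef1* and *Wnt2b* higher. Some of these genes were near the floor. *Wnt2b* had a mean of 0.289 CPM in cultured primary oocytes, with 2 of 3 libraries above the floor, and no count in cultured primordial ones. *Fzd4* had 2 of 3 cultured primary libraries above the floor, with 94.8% of its level in 1. The culture comparison of primary oocytes and the stage comparison *in vivo* share the primary *in vivo* libraries. *Tcf7*, *Sfrp1* and *Wls* therefore appear in both lists through the same 3 libraries.

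In MII oocytes 8 of 34 genes (23.5%) did not overlap between the groups, against 16.2% of all genes tested. *Wls* had 2.75, 0.480 and 2.06 CPM *in vivo* and 11.7, 8.70 and 8.85 CPM *in vitro*, that is, 23, 4 and 20 counts against 101, 92 and 79. Every *in vitro* library was above every *in vivo* one, and the log2 fold change was 2.46 ± 0.767 (SE), the largest among the 20 genes above the floor in all 6 libraries, with an unadjusted edgeR p of 0.00656 and an adjusted p of 0.296. It was positive under each of the other settings tried, at 1.35 to 2.69 with adjusted p-values of 0.0603 to 0.466, and at 2.02 to 2.92 with single libraries left out.

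*Lgr4* and *Lef1* followed in MII oocytes. *Lgr4*, the R-spondin receptor, had 8.37, 9.002 and 11.1 CPM *in vivo* and 29.7, 15.98 and 19.4 CPM *in vitro*, without overlap (1.19 ± 0.486, edgeR adjusted p = 0.442). *Lef1* had 77.0, 76.6 and 49.3 CPM *in vivo* and 173, 68.1 and 154 CPM *in vitro*, so 1 *in vitro* library lay within the *in vivo* range (0.96 ± 0.394, adjusted p = 0.443). *Lgr6*, the related receptor, went the other way without overlap, from 44.1, 46.8 and 34.9 CPM *in vivo* to 30.7, 23.8 and 20.4 CPM *in vitro* (-0.75 ± 0.386, adjusted p = 0.505). *Lrp6* and *Tcf7l2* were lower *in vitro* and *Apc*, *Dkk3* and *Fzd2* higher, each without overlap and with unadjusted edgeR p-values from 0.0548 to 0.151. *Fzd2* was near the floor, with a mean of 0.414 CPM *in vitro*, 1 of 3 libraries above the floor, and no count *in vivo*. *Porcn* had 29, 1 and 0 counts *in vitro* and none *in vivo* (edgeR adjusted p = 0.478), a value of 1 library. *Ctnnb1*, *Tcf7*, *Dvl2* and *Dvl3* had log2 fold changes between -0.28 and 0.13, each less than its own SE from 0. The summed stromal markers stayed between 1.30 and 5.02 TPM in MII libraries. The 13 granulosa markers separated the MII groups, with 8, 9 and 7 of them above the floor *in vitro* against 5, 5 and 6 *in vivo*, and with 263, 270 and 477 TPM against 244, 234 and 204 TPM. Among them *Inhba* was at 0 *in vivo* and had 23, 15 and 51 counts *in vitro* (edgeR adjusted p = 0.153). The part of these markers in the MII differences was not tested.

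**Figure D4:**
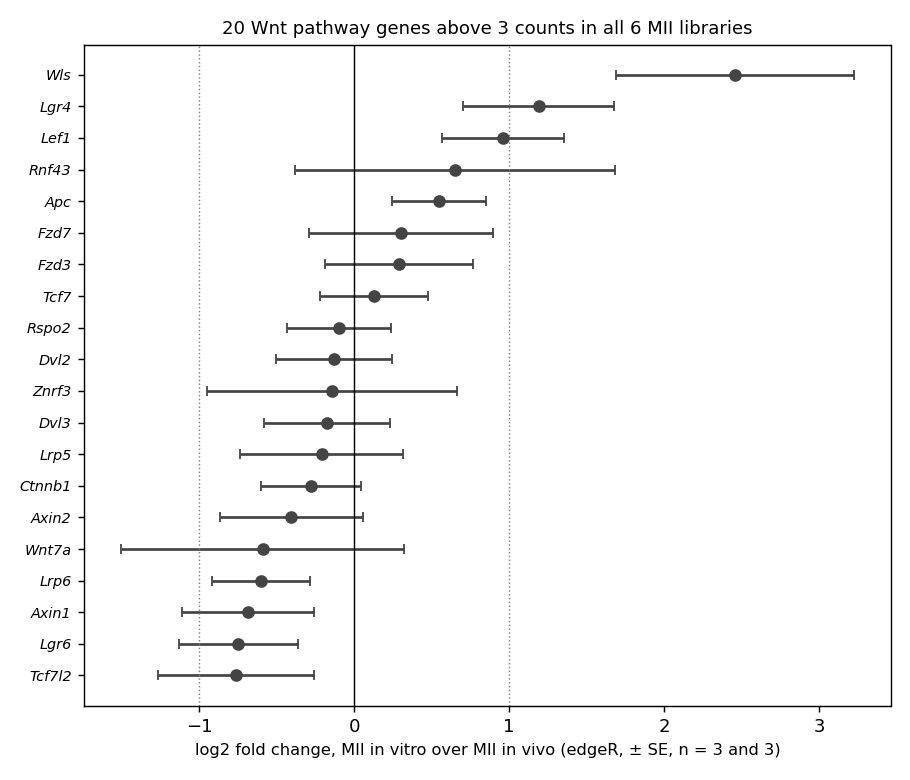
Log2 fold change of MII oocytes *in vitro* over *in vivo* (points) with the standard error of edgeR's fit (bars; 3 libraries a group) for the 20 pathway genes above 3 counts in all 6 MII libraries; dotted lines mark a fold of 2 in either direction. *Wls* stands highest at 2.46, *Lgr4* at 1.19 and *Lef1* at 0.96 follow, and the lowest, *Tcf7l2* and *Lgr6*, are at -0.76 and -0.75; none of the 20 passed the adjusted threshold.

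Other genes of the pathway were read from lists of partners, and none was called by edgeR in any comparison. The lists were 22 partners of the destruction complex, 20 co-factors and repressors of β-catenin in the nucleus, 23 genes of the non-canonical and planar polarity branch, extracellular modulators of which 14 were in the table, and 21 target genes in the table. Partners of the destruction complex, which hold kinases such as GSK3 and casein kinase 1, had no gene at an unadjusted p under 0.05 in the 5 LCM comparisons. In MII oocytes, where 10.2% of all genes had, 1 of 22 did, *Csnk1a1*, with 681, 841 and 1100 counts *in vivo* and 1411, 2302 and 1634 *in vitro* (0.93 ± 0.317, edgeR adjusted p = 0.367). The planar polarity list had 3 of 22 in primordial culture, close to the 11.7% of all genes, with 2 higher and *Prkca*, a protein kinase C, lower *in vitro* (-9.27 ± 4.12, edgeR adjusted p = 0.363). It had none in primary culture, 2 of 18 in MII oocytes, both lower *in vitro*, 2 of 22 between stages *in vivo* and 2 of 22 *in vitro*, and 1 of 22 for the interaction. In primordial culture *Ror2*, a Wnt5a receptor, was at 0 in the 3 libraries *in vivo* and had 2672, 2020 and 15 counts *in vitro*. *Vangl2*, a planar polarity membrane protein, was likewise at 0 *in vivo* and had 109, 1881 and 171 counts *in vitro*, each with an edgeR adjusted p of 0.359.

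Target genes of the pathway had 5 of 19 at an unadjusted p under 0.05 between the stages *in vitro*, all higher in primary oocytes: *Lef1*, *Notum*, *Rnf43*, *Lgr5* and *Jun*. Of all genes tested 10.9% had, 1411 higher and 262 lower, so most genes past this limit were higher in this comparison. *Lef1*, *Rnf43* and *Lgr5* are also among the 56 genes, so this count repeats values given with them. The surface epithelium markers had 5 of 7 in the same direction in the same comparison, among them *Krt19*, with 0, 41859 and 1 counts in cultured primary and none in cultured primordial oocytes (edgeR adjusted p = 0.289). Their part in the target gene values was not tested. *Jun* had 8537, 252 and 107 counts in primordial oocytes *in vivo* and 0 in the 3 cultured libraries (edgeR adjusted p = 0.359). The co-factor list had 1 of 20 in primordial culture, 2 of 18 in MII oocytes and 1 of 20 for the interaction, and the extracellular modulators had 2 of 11 in primary culture, 1 of 11 between stages *in vivo* and 2 of 11 *in vitro*, with no such gene in their other comparisons. The target list had 3 of 19 in primordial culture, 4 of 19 in primary culture, 2 of 12 in MII oocytes, 1 of 19 between stages *in vivo* and 5 of 19 for the interaction. The shares over all genes were 11.7% in primordial culture, 9.66% in primary culture, 10.2% in MII oocytes, 11.2% between stages *in vivo*, 10.9% *in vitro* and 11.5% for the interaction, and no difference from them was tested.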

How the data were processed

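RNA was measured in 18 libraries, 3 in each of 6 groups mapped from the sample labels. Per the submitters' processing notes and the study's methods, reads were trimmed with Trim Galore 0.4.1, mapped to mm10 with TopHat2 and counted per gene with featureCounts; whether counting used strand, and how reads mapping to several places were counted, is not given in the sources used here. The authors deposited raw read counts of 53715 genes, and TPM values, which they normalized for gene length and library size, of 28252 genes. Counts were tested here, and TPM was used to set levels of different genes side by side. Reads were not processed again, and the depth of each library is its total count.

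The 56 genes were taken by gene symbol from the TPM table and joined to the counts by Ensembl identifier. The genes and the gene lists were chosen with earlier results of these data known. edgeR 4.0.16 (R 4.3.3) was run with TMM scaling, robust glmQLFit and glmQLFTest on genes with at least 10 counts in total: 15317 genes in a model of the 12 LCM libraries (biological coefficient of variation 2.02) and 17144 genes in a model of the 6 MII libraries (0.726). Calls needed a p under 0.05 after Benjamini-Hochberg adjustment and a 2-fold change or more, and SEs are those implied by the F statistic. CPM uses TMM-scaled library sizes. A fold against a group with no library above 3 counts was computed against the mean of those floors and is a lower bound. Genes were named by rule: the 5 smallest p-values per comparison, the 10 highest mean TPM in each kind of library, 7 genes the study names, and genes detected in a whole group and at 0 in its counterpart; from the partner and marker lists the 3 smallest p-values per comparison; any other gene named with values was chosen after its values were seen. The fitting code was tested on simulated counts. The alternatives were DESeq2 1.42.0, limma 3.58.1 on log2(TPM + 1) and log2(TPM + 0.1), other scaling, other filters, a fit without robust estimation, a fit of only the 2 groups compared, a replicate block, no fold threshold, and each library left out in turn. Coordinates and exon overlaps come from GENCODE M21 (GRCm38).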

Additional observations from a re-analysis of the deposited data

Results flagged for a closer look

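*Lgr6* went in opposite directions at different stages when *in vitro* was set against *in vivo*. In primary oocytes every cultured library was above every *in vivo* library (7, 1746 and 187 counts against 0, 0 and 0; fitted log2 fold change 12.29), and in MII oocytes every *in vitro* library was below every *in vivo* one (265, 252 and 182 counts against 369, 390 and 339; log2 fold change -0.75). Neither difference passed the edgeR threshold, with adjusted p-values of 0.440 and 0.505. The difference between the stages was not tested, since the libraries were prepared differently.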

How the results depend on the processing

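With edgeR no pathway gene was called in any of the 6 comparisons under other scaling (DESeq2's size factors, TMMwsp, library size alone), other filters, a fit without robust estimation, a fit of only the 2 groups compared or no fold threshold, nor with limma on TPM. DESeq2 changed the count from 0 to 4 of 47 in primordial culture (*Fzd1*, *Rspo2*, *Wnt5a*, *Znrf3*), against 812 of all 15317 genes. In primary culture it became 2 of 47 (*Lgr6*, *Wnt4*), against 244 of 15317. Between stages it became 2 of 47 *in vivo* (*Rspo2*, *Sfrp1*), against 561 of 15317. *In vitro* it became 2 of 47 (*Rnf43*, *Wnt5a*), against 454 of 15317. For the interaction it became 3 of 47 (*Rnf43*, *Rspo2*, *Wnt5a*), against 558 of 15317. In MII oocytes it stayed at 0. The cause was not tested. With single libraries left out, the count ranged from 0 to 1 between stages *in vivo* and for the interaction, the 1 being *Rspo2* without the first primary library *in vivo*, and it was 0 in each other comparison. The labels do not say whether equal replicate numbers pair samples. Correlations of same-numbered deviations were -0.0662 to 0.0897 in LCM and -0.0241 to 0.0159 in MII libraries. For other pairs they were -0.0776 to 0.0895 and -0.0375 to 0.0285. With 3 libraries a group and a wide spread, these values cannot show whether samples were paired. With a replicate block the count was 0 in each comparison. Of 61 log2 fold changes of pathway genes given or called here, none reversed under another setting that kept all libraries. Without single libraries 15 came to 0 or could not be fitted, among them those of *Dkk2*, and 4 values near 0 in MII oocytes changed sign: *Rspo2* ran from -0.29 to 0.12, *Tcf7* from -0.10 to 0.34, *Dvl3* from -0.50 to 0.054 and *Znrf3* from -0.61 to 0.36. With TMM the median log2 fold change of all genes was 0.436 for primary culture, 0.439 between stages *in vitro* and 0.913 for the interaction, and other scaling moved these by at most 0.367. Large fitted values of genes at 0 in a group depend on the setting, such as *Wnt5a*, 11.16 with edgeR and 24.97 with DESeq2 between stages *in vitro*. Precision is limited by the spread among LCM libraries, with a coefficient of variation of 2.02 against 0.726 in MII libraries, so an absent call among them does not show that levels were alike.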
